A study of Homo sapiens with 12 samples.

Results

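The genes examined here are a module of 47 NRF2, glutathione and antioxidant genes, measured by RNA-seq in LNCaP cells, an established androgen-responsive line of prostate cancer. The module was chosen by gene symbol, from a list of glutathione, thioredoxin and NRF2 pathway genes, and with a measured value of these data in view, the fall of GCLC with DHT in both lines. Of the 47 symbols, 46 matched an Ensembl identifier among the 63677 in the count files, and SOD2 did not. A total of 45 had at least 10 counts summed over all samples, as did 26156 identifiers in all, and 39 had a mean normalised read count of at least 100. The gene identifier paired with TXNIP had 0 counts in every sample.

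Of the 2 cell lines, control was a TALEN control line with Bag-1L intact, and Bag-1L KO was a line in which a TALEN, a designed nuclease, had removed the start codon of Bag-1L, the longest protein made from the BAG1 gene. The knockout came from clones isolated by dilution after transient transfection and brief drug selection, so differences between the lines can also be differences between clones, and the 2 cannot be told apart. Each line was grown in full medium with fetal bovine serum (FM), or kept for 72 h in charcoal-treated serum that is low in hormones and then given vehicle (EtOH) or 10 nM dihydrotestosterone (DHT), an androgen, for 16 h. The 6 groups had 2 replicates each, 12 samples in all. The sources do not say whether replicates were separate cultures, so p-values measure only the spread between these samples, which may be technical.

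NRF2, encoded by NFE2L2, is a transcription factor that KEAP1 marks for degradation under resting conditions. When reactive electrophiles or oxidants modify KEAP1, NRF2 accumulates and binds antioxidant response elements near genes for glutathione synthesis, thioredoxin reduction and detoxification. Glutathione and thioredoxin are the main thiol reductants of the cell, and peroxidases, peroxiredoxins, glutaredoxins and transferases spend them. NRF2 is regulated mostly at the protein level, which these mRNA counts do not measure.

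The sequences just upstream of the annotated starts were searched for every member that had one, and some of them are shown. A RefSeq sequence of the 250 bases before a start was found for 38 members, and the stretches shown were located on GRCh37 by exact match. The letters TGACNNNGC, the core of the antioxidant response element, occurred on either strand in 9 of these 38 members (23.7%) and in 3609 of all 27305 genes with such a sequence (13.2%). The 9 were GCLM, GGT1, GPX2, GSTA4, GSTO1, GSTP1, KEAP1, PGD and TXNRD1. On either strand, the letters AGAACA, one arm of the androgen response element, occurred in 4 members (10.5%) and in 14.8% of all genes, and both arms with a spacer of 3 bases in 0 of the 38 and in 1 gene of all (0.00366%). The stretches below show GCLC and GCLM, the subunits of the enzyme that starts glutathione synthesis and whose mRNAs moved in opposite directions, followed by TXNRD1 at both of its annotated starts, GGT1 and NQO1. They are written 5′ to 3′ on the strand of the gene, with each match in capitals.
GCLC, chr6:53409900-53410019, minus strand, GRCh37: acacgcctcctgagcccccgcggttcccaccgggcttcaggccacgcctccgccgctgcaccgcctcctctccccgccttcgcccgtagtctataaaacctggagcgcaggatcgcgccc
GCLM, chr1:94374987-94375060, minus strand, GRCh37: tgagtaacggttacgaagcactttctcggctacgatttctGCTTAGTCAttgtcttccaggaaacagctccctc
TXNRD1, first start, chr12:104609418-104609506, plus strand, GRCh37: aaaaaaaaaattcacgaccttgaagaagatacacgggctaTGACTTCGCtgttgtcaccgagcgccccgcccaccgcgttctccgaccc
TXNRD1, second start, chr12:104680668-104680756, plus strand, GRCh37: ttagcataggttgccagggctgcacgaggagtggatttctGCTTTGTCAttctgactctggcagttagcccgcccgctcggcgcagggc
GGT1, chr22:24999091-24999159, plus strand, GRCh37: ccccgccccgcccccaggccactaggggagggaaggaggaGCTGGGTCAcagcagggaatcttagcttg
NQO1, chr16:69760464-69760583, minus strand, GRCh37: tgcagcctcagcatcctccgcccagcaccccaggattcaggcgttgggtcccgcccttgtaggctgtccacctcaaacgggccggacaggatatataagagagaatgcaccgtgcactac
GCLM and this start of GGT1 carried the core in the reverse orientation close to the start, TXNRD1 carried it at both starts, and the windows of GCLC and NQO1 held no match. Those of GPX8, GLRX2, PRDX4 and PRDX5, not shown, held none either, and no sequence was found for ABCC1, HMOX1 or PRDX6. TXNRD1 is shown although it was called in no tested comparison with all samples. A match in these letters is no evidence of binding, and elements farther upstream, where those of GCLC and NQO1 are known to lie, were outside the window.

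Total gene counts lay between 20826843 and 30354666 per sample, so that 3 counts, taken as the floor of detection, corresponded to 0.0988 to 0.144 CPM, the count scaled by the library total. All 8 luminal prostate markers were detected, with a summed level of 2682.4 to 3971.5 CPM, whereas leukocyte markers summed to at most 0.33, basal markers to at most 1.33 and endothelial markers to 5.1 to 9.49. Of 5 fibroblast markers 3 stayed under 1 CPM, and the sum, carried by COL1A1, was 16.21 to 17.75 in FM and 28.95 to 38.79 in the starved groups, and its part in the FM results was not tested. BAG1 mRNA, which covers all Bag-1 forms, was at 1701.5 and 2702.6 normalised counts in control EtOH against 1191.4 and 1103.0 in KO EtOH, then at 2198.9 and 2630.7 in control DHT against 1075.5 and 1113.6 in KO DHT, and at 2117.0 and 1967.7 in control FM against 1452.2 and 1576.1 in KO FM. The control EtOH replicates were the least alike: the typical gene differed between them by 0.238 on the log2 scale, against 0.076 to 0.172 between the replicates of the other groups (medians over 11374 genes with a mean of at least 100 counts). Among the members this spread had a direction: 32 of the 39 better counted members were higher in control EtOH replicate 2 than in replicate 1, with a median difference of 0.261 on the log2 scale, beside 50.9% of genes and a median of 0.008 over the same genes. Calls of members that were lost without 1 of these libraries are named where they occur. Other pathway genes, counted further below, were examined with all samples only, so their dependence on these libraries was not tested.

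Levels of the members were compared with each other first, in TPM, which divides counts by exon length before scaling by the library total. Peroxiredoxins and thioredoxin, the abundant enzymes of peroxide removal, led the order, with mean levels over the 12 samples of 1768.79 TPM for PRDX1, 1270.52 for PRDX5, 1160.84 for PRDX6 and 923.02 for TXN. PRDX5 and PRDX6 changed places between conditions, at 1615.09 ± 457.55 and 830.54 ± 4.44 TPM (SD, n = 2) in control EtOH but 716.43 ± 47.62 and 1272.72 ± 4.68 in control FM. A total of 22 members exceeded 100 TPM. Among the regulators NFE2L1, a relative of NFE2L2, had 135.43 TPM, KEAP1 98.27 and NFE2L2 14.74, and the subunits of the enzyme that starts glutathione synthesis had 35.62 for GCLC and 33.12 for GCLM.

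At the low end, 6 members had under 1 TPM, the identifier of TXNIP with its 0 counts included. GSTP1, the transferase that prostate cancer cells commonly silence by promoter methylation, had 15 counts summed over all 12 samples, and GSTM4 had 13. GPX3, a secreted peroxidase, and GSTM2 reached at most 19.2 and 20.8 normalised counts in any sample. SRXN1, sulfiredoxin, had 36 counts in all, but 90.7% of its exon bases are shared with another annotated gene on the same strand, so its count is uncertain. For these members a change was not detectable at this depth. GPX2, a further peroxidase, was low but measurable, at 8.6 and 9.0 normalised counts in control EtOH and 22.6 and 17.9 in KO EtOH, at 19.2 and 10.1 with DHT in control and 21.8 and 27.9 in KO, and at 21.0 and 17.5 with FM in control and 42.0 and 40.6 in KO. KO samples were above control samples in each condition. None of its log2 differences between KO and control passed with DESeq2, at 1.2 in EtOH, 0.76 in DHT and 1.1 in FM (adjusted p of 0.19, 0.341 and 0.0881), whereas edgeR called it higher in KO in FM, at 1.12 (adjusted p = 0.0263), and higher in FM than in EtOH, at 1.11 in control (adjusted p = 0.0458) and 1.05 in KO (adjusted p = 0.0148).

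**Figure D1:**
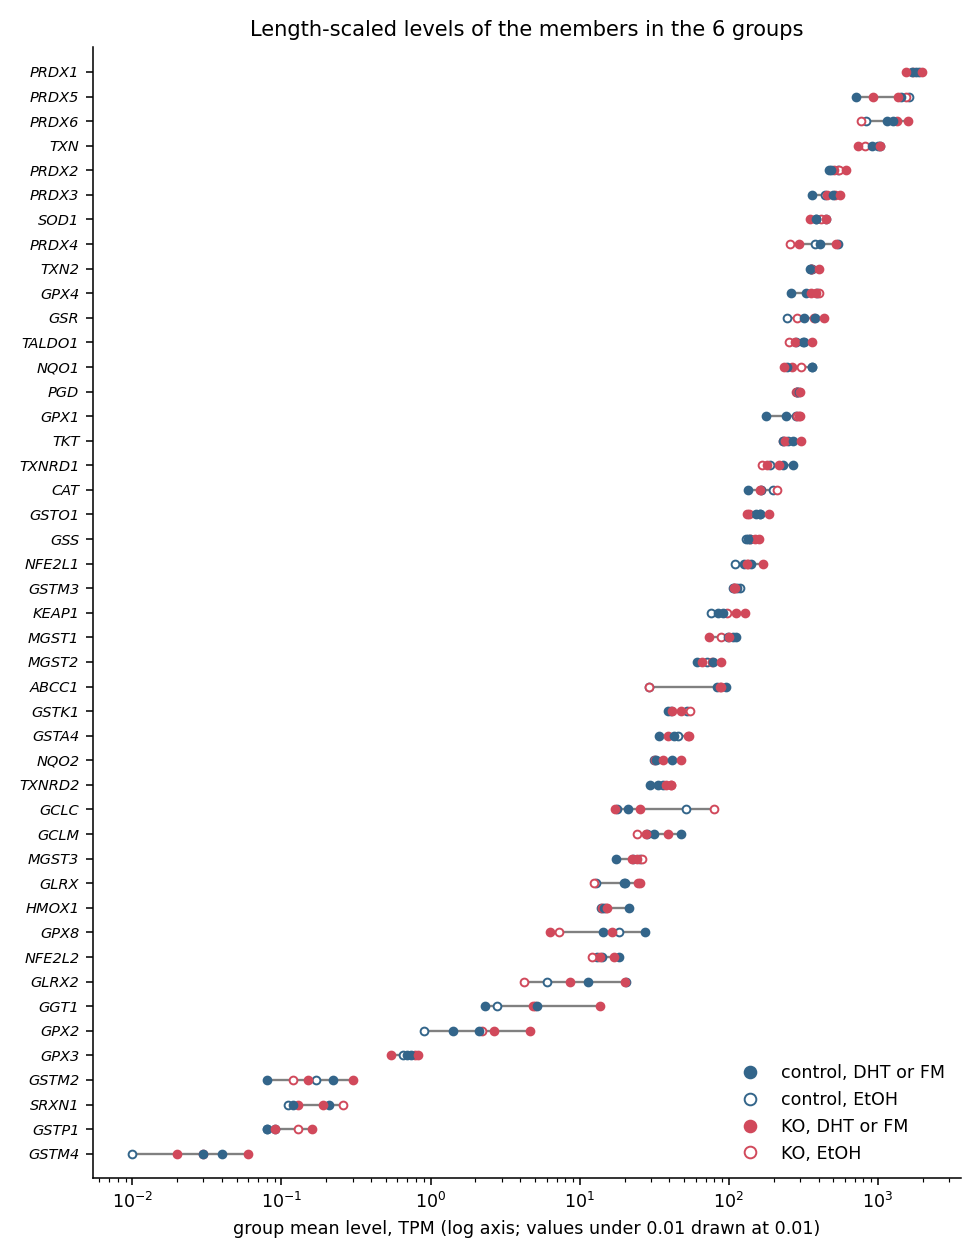
Mean level of each of the 45 members past the filter in the 6 groups, in TPM on a log axis, ordered by the mean over all samples (blue, control; red, Bag-1L KO; open, EtOH; filled, DHT or FM; the grey line spans the 6 group means). PRDX1 leads at 1768.79 TPM and GSTM4 is lowest, and GCLC, ABCC1, GLRX2, GPX8 and GGT1 have the widest spans among members with at least 100 normalised counts.

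Across the 6 groups the highest group mean was under 1.5 times the lowest for 19 of the 39 better counted members, between 1.5 and 2 times for 10, and 2 times or more for 10. The median ratio was 1.51, beside 1.55 over all 11374 genes counted as well. Of these 39, GGT1 varied most, with a ratio of 5.06, followed by GLRX2 with 4.94, GCLC with 4.75, GPX8 with 4.21 and ABCC1 with 3.32. These 5 genes stand at separate steps: GCLC in synthesis, GGT1 in breakdown of glutathione outside the cell, ABCC1 in its export, and GLRX2 and GPX8 in thiol and peroxide reduction in mitochondria and the endoplasmic reticulum.

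**Figure D2:**
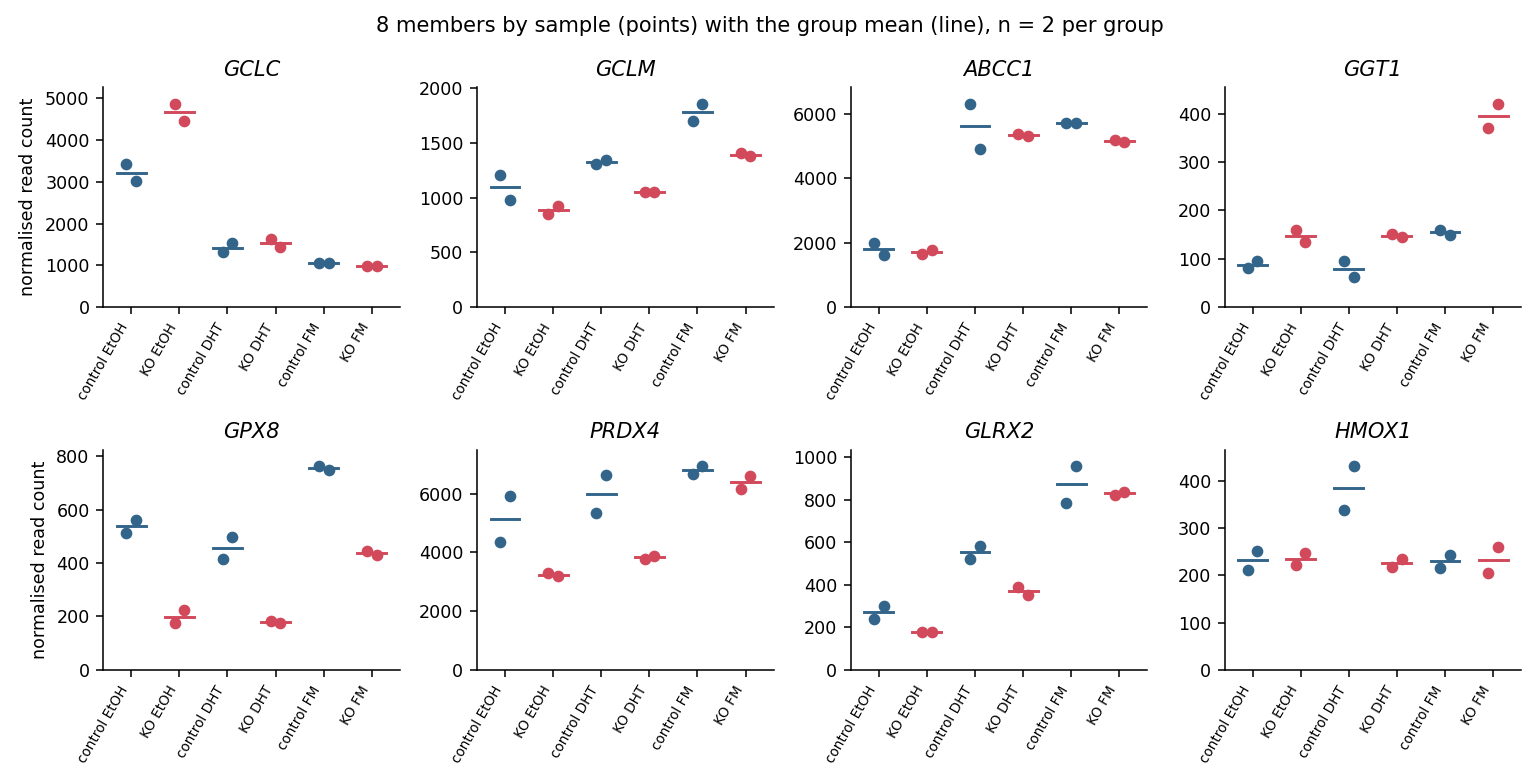
Normalised read count of 8 members in each of the 12 samples (points; blue, control; red, Bag-1L KO) with the mean of the 2 replicates as a line, on a linear axis from 0. GCLC lies between 3010.0 and 4868.4 in the EtOH groups against at most 1620.8 elsewhere, while ABCC1 is lowest in the EtOH groups, and GPX8 is lower in KO than in control within each condition.

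Glutamate-cysteine ligase, which joins glutamate and cysteine in the limiting step of glutathione synthesis, has a catalytic subunit, GCLC (ENSG00000001084, chromosome 6, 53362139 to 53481768, minus strand, GRCh37), and a modifier subunit, GCLM (ENSG00000023909, chromosome 1, 94350755 to 94375012, minus strand). GCLC was at 3411.5 and 3010.0 normalised counts in control EtOH, at 1313.5 and 1524.2 in control DHT, and at 1045.8 and 1060.2 in control FM. In KO it was at 4868.4 and 4450.4 in EtOH, at 1620.8 and 1440.3 in DHT, and at 980.3 and 983.1 in FM. In both lines the EtOH samples were thus the highest and did not overlap those with DHT or FM.

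GCLM ran the other way. Its normalised count in control was 1211.4 and 977.8 with EtOH, 1308.4 and 1348.6 with DHT, and 1702.9 and 1861.7 with FM. In KO it was 847.8 and 927.0 in EtOH, 1052.9 and 1053.8 in DHT, and 1414.0 and 1377.7 in FM. The FM samples were highest in each line. Per length, the ratio of GCLC to GCLM mRNA in TPM was therefore 1.77 and 1.94 in control EtOH against 3.62 and 3.02 in KO EtOH, but 0.63 and 0.71 in control DHT, 0.97 and 0.86 in KO DHT, 0.39 and 0.36 in control FM, and 0.44 and 0.45 in KO FM. The catalytic subunit's mRNA exceeded that of the modifier in all 4 EtOH samples and in none of the other 8.

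To see which members differed between KO and control, differential expression was tested with DESeq2 over all genes, and calls required a fold change of 1.5 or more with a p of 0.05 or less after Benjamini-Hochberg adjustment. In bulk RNA, fewer cells that express a gene and less RNA per cell cannot be told apart. In EtOH, 42 members received an adjusted p. GGT1 was called higher in KO, 1 of 42 members (2.38%, beside 2.8% of all genes), and GPX8, PRDX4 and GLRX2 lower, 3 of 42 (7.14%, beside 2.31%). In DHT, GGT1 was again called higher, 1 of 41 (2.44%, beside 4.66%), and GPX8, HMOX1, PRDX4, NQO1 and MGST1 lower, 5 of 41 (12.2%, beside 3.32%). In FM, GGT1 and GPX1 were called higher, 2 of 40 (5.0%, beside 5.41%), and GPX8 lower, 1 of 40 (2.5%, beside 2.6%). The median log2 fold change of the members tested was -0.109 in EtOH, -0.068 in DHT and 0.123 in FM, beside -0.015, -0.018 and -0.014 over all genes. Without control EtOH replicate 2 the EtOH median was 0.074, so its sign rested on that library. The DHT median ran from -0.195 without KO DHT replicate 2 to -0.004 without KO DHT replicate 1.

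GPX8 (ENSG00000164294, chromosome 5, 54455995 to 54463125, plus strand) encodes a glutathione peroxidase family member of the endoplasmic reticulum membrane. It was at 512.9 and 561.0 normalised counts in control EtOH against 176.3 and 223.0 in KO EtOH, then at 413.9 and 496.3 in control DHT against 182.3 and 176.3 in KO DHT, and at 763.1 and 748.0 in control FM against 445.8 and 431.8 in KO FM. Control and KO samples did not overlap in any condition. In EtOH the log2 fold change was -1.42 (standard error 0.16, DESeq2 adjusted p = 6.44e-16), -1.34 in DHT (standard error 0.16, adjusted p = 2.87e-14) and -0.78 in FM (standard error 0.15, adjusted p = 1.09e-05). GPX8 was called in each condition under every alternative fit tried, including each fit that left out 1 of the samples compared.

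GGT1 (ENSG00000100031, chromosome 22, 24990778 to 25024972, plus strand) encodes a gamma-glutamyltransferase, an enzyme of the cell surface that cleaves extracellular glutathione. It has near-identical relatives on the same chromosome, and reads that aligned to several places had been left out, so its counts are uncertain to that extent. Its normalised count was 80.9 and 95.5 in control EtOH against 160.5 and 134.6 in KO EtOH, then 94.9 and 61.5 in control DHT against 150.9 and 144.4 in KO DHT, and 159.0 and 149.8 in control FM against 370.3 and 420.9 in KO FM. KO samples were above control samples in each condition. The log2 fold change was 0.74 in EtOH (standard error 0.23, adjusted p = 0.0183), 0.92 in DHT (standard error 0.23, adjusted p = 0.00128) and 1.36 in FM (standard error 0.21, adjusted p = 1.08e-08). The EtOH call was lost without KO EtOH replicate 1, KO EtOH replicate 2 or control EtOH replicate 1 (adjusted p of 0.328, 0.0789 and 0.0888), and the DHT call without control DHT replicate 2 (adjusted p = 0.162). The FM call was kept in every fit.

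PRDX4 (ENSG00000123131, chromosome X, 23682379 to 23704514, plus strand), the peroxiredoxin of the endoplasmic reticulum, was at 4356.5 and 5934.5 normalised counts in control EtOH against 3294.9 and 3193.1 in KO EtOH, then at 5327.5 and 6649.4 in control DHT against 3780.6 and 3872.6 in KO DHT. In FM it was at 6681.2 and 6939.1 in control against 6152.1 and 6617.8 in KO. KO samples lay below control samples throughout, by least in FM. The log2 fold change was -0.67 in EtOH (standard error 0.15, adjusted p = 0.000205) and -0.65 in DHT (standard error 0.15, adjusted p = 0.000221), and -0.09 in FM (standard error 0.15, adjusted p = 0.712), which was not called. It was -0.43 without control EtOH replicate 2 and -0.48 without control DHT replicate 2, under the fold change minimum in both.

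GLRX2 (ENSG00000023572, chromosome 1, 193059996 to 193075244, minus strand), a glutaredoxin with a mitochondrial form, was at 240.8 and 300.4 normalised counts in control EtOH against 176.3 and 176.9 in KO EtOH. Its log2 fold change there was -0.61 (standard error 0.17, adjusted p = 0.00702). In DHT it was at 521.9 and 584.0 in control against 387.3 and 351.6 in KO, a log2 difference of -0.58 (standard error 0.16, adjusted p = 0.00293), just under the fold change minimum. KO samples were below control samples in both conditions. RO60, a gene on the opposite strand, covers 7.7% of the exon bases of GLRX2, and the strand setting of the counting is not given. GLRX2 was called in DHT without control DHT replicate 1 (-0.66) or KO DHT replicate 1 (-0.65), and not without replicate 2 of either group. The EtOH call was lost without control EtOH replicate 2 (-0.45) or without either KO EtOH replicate (adjusted p of 0.112 and 0.127).

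HMOX1, NQO1 and MGST1 were called lower in KO in DHT and were not called in EtOH or FM. HMOX1 (ENSG00000100292, chromosome 22, 35776354 to 35790207, plus strand) encodes haem oxygenase, which degrades haem. It was at 338.2 and 431.7 normalised counts in control DHT against 217.8 and 235.1 in KO DHT, a log2 difference of -0.77 (standard error 0.19, adjusted p = 0.000955). In EtOH it was at 212.2 and 251.7 in control against 221.5 and 248.4 in KO, and in FM at 216.5 and 243.2 in control against 204.3 and 259.8 in KO. The control DHT samples were the highest of all 12, and the other 5 groups overlapped.

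NQO1, the quinone reductase often used as a readout of NRF2, was at 7753.5 and 9177.3 normalised counts in control DHT against 5238.5 and 5786.9 in KO DHT. Its log2 fold change was -0.62 (standard error 0.13, adjusted p = 3.76e-05). An antisense gene overlaps 19.4% of its exon bases, but that gene had 0 counts. MGST1, a membrane-bound glutathione transferase, was at 5340.6 and 6239.9 in control DHT against 3900.8 and 3762.0 in KO DHT, a log2 difference of -0.6 (standard error 0.12, adjusted p = 1.83e-05). In EtOH both were also lower in KO without being called, by a log2 value of -0.32 for NQO1 (standard error 0.13, adjusted p = 0.0934) and -0.35 for MGST1 (standard error 0.12, adjusted p = 0.0363).

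The DHT calls changed with single libraries and with the processing. Without control DHT replicate 2, GPX8 alone of the 6 was still called, the values of HMOX1, NQO1 and MGST1 were -0.58, -0.49 and -0.48, and TXNRD1 was called instead (-0.59). Without KO DHT replicate 1, HMOX1 (-0.71) and NQO1 (-0.55) were no longer called, and without KO DHT replicate 2, MGST1 (-0.57) was not. MGST1 was also not called with edgeR (-0.56), with TMM size factors (-0.56) or with only the samples compared (-0.58), all just under the fold change minimum.

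GPX1, the abundant cytosolic glutathione peroxidase, was at 1807.8 and 1651.6 normalised counts in control FM against 2707.6 and 2923.1 in KO FM. The log2 fold change was 0.7 (standard error 0.21, adjusted p = 0.0095), and it lost its call without control FM replicate 2 or either KO FM replicate, at 0.64 to 0.76 with adjusted p of 0.0536 to 0.164. In EtOH the control samples themselves differed widely, at 2094.5 and 3845.6, and enclosed the KO values of 2773.8 and 2755.5.

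**Figure D3:**
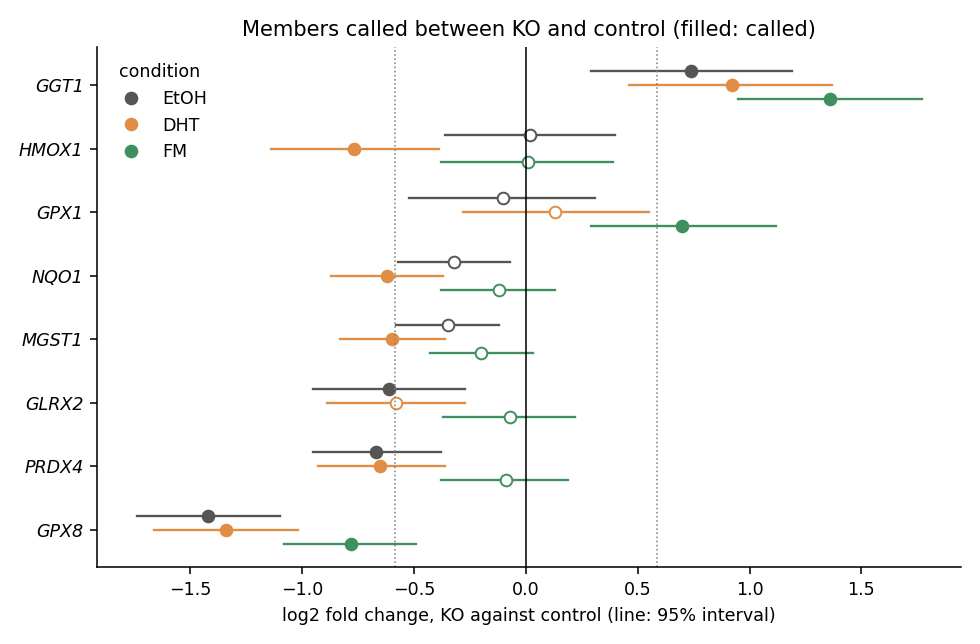
Log2 fold change of KO against control in EtOH (grey), DHT (orange) and FM (green) for the 8 members called in at least 1 of these, with 95% intervals as lines, filled points for calls and dotted lines at a 1.5-fold change. GPX8 lies at -1.42, -1.34 and -0.78 and GGT1 at 0.74, 0.92 and 1.36, while HMOX1 lies at -0.77 in DHT.

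The regulators NFE2L2, NFE2L1 and KEAP1 were not called in any tested comparison with all samples. NFE2L2 (ENSG00000116044, chromosome 2, 178083395 to 178257484, minus strand) was at 1455.0 and 1357.8 normalised counts in control EtOH against 1245.6 and 1206.5 in KO EtOH, then at 1588.1 and 1701.7 in control DHT against 1409.5 and 1460.2 in KO DHT, and at 1863.0 and 1901.6 in control FM against 1706.9 and 1666.0 in KO FM. KO samples were below control samples in each condition, but the log2 differences of -0.2, -0.2 and -0.16 did not pass (adjusted p of 0.258, 0.181 and 0.28). Genes on the opposite strand cover 24.8% of its exon bases, and the strand setting of the counting is not given in the sources used here.

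KEAP1 (ENSG00000079999, chromosome 19, 10596801 to 10614234, minus strand) was at 1684.4 and 2270.9 normalised counts in control EtOH against 2422.3 and 2267.1 in KO EtOH, then at 2500.7 and 2616.6 in control DHT against 2580.9 and 2985.1 in KO DHT, and at 2193.2 and 1953.2 in control FM against 2953.9 and 3089.7 in KO FM. The lines overlapped in EtOH and DHT and did not in FM, where the log2 difference was 0.54 (standard error 0.14, adjusted p = 0.00231), a 1.46-fold difference under the minimum for a call. KEAP1 passed that minimum without control FM replicate 1 (0.62), and was not called without control FM replicate 2 or either KO FM replicate. The log2 difference of GCLC between KO and control in EtOH, given as a description since GCLC was chosen on these samples, was 0.54 (standard error 0.12). It was 0.63 without control EtOH replicate 1 and 0.6 without KO EtOH replicate 2. Without control EtOH replicate 2 or KO EtOH replicate 1 it stayed under the fold change minimum. In DHT it was 0.11 (standard error 0.12), and in FM, whose samples the choice did not use, -0.1 (standard error 0.13, adjusted p = 0.625).

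A total of 29 of the 45 members were called in no tested comparison. The other 16 include GCLC, given as a description, and the matching share over all genes was not counted. Besides the 6 members of low count and the regulators, the 29 included the enzymes that recycle the reductants. TXNRD1, cytosolic thioredoxin reductase, was at 10278.4 and 7736.9 normalised counts in control EtOH against 7461.3 and 7650.1 in KO EtOH, then at 12759.0 and 11185.6 in control DHT against 8656.1 and 8255.1 in KO DHT, and at 12148.8 and 12710.1 in control FM against 9810.2 and 9298.7 in KO FM. KO samples were below control samples in each condition, and the log2 value in DHT was -0.5 (standard error 0.13, adjusted p = 0.00195), under the fold change minimum. GSR, glutathione reductase, ranged from 6236.9 to 10382.9 normalised counts with a log2 value for FM against EtOH of 0.54 in control (adjusted p = 1.55e-09) and 0.56 in KO (adjusted p = 2.75e-10), also under the minimum. The pentose phosphate enzymes PGD, TALDO1 and TKT, of a pathway that supplies NADPH, had ratios of the highest to the lowest group mean of 1.18, 1.45 and 1.28. PRDX1, PRDX2 and PRDX3 had ratios of 1.27, 1.22 and 1.31, and SOD1 and CAT, which remove superoxide and hydrogen peroxide, 1.33 and 1.36. Among the transferases GSTA4, GSTK1, GSTM3, GSTO1 and MGST2 the ratios were 1.25 to 1.40, TXN, TXN2 and TXNRD2 had 1.49, 1.17 and 1.38, and NQO2 had 1.45.

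Other genes of the pathway that are no members were counted from a separate list of 68, of which 65 passed the filter. KO against control, 2 of the 56 with an adjusted p in EtOH were called higher (3.57%) and 4 lower (7.14%), 2 of 55 in DHT higher (3.64%) and 10 lower (18.2%), and 6 of 53 in FM higher (11.3%) and 4 lower (7.55%). The shares over all genes were 2.8% and 2.31% in EtOH, 4.66% and 3.32% in DHT, and 5.41% and 2.6% in FM. SLC7A11, the cystine carrier that supplies cysteine for glutathione, had the largest fall in EtOH, from a mean of 4680.2 to 2186.9 normalised counts, a log2 difference of -1.1 (standard error 0.14, adjusted p = 4.21e-13). Its values in DHT and FM were both -1.08. OPLAH, which returns oxoproline from glutathione breakdown to glutamate, had the largest rise in EtOH, of 0.98 (standard error 0.14, adjusted p = 1.23e-10), and in FM, of 1.02 (standard error 0.14, adjusted p = 1.21e-10). NNT, a mitochondrial source of NADPH, had the largest fall in FM, of -1.33 (standard error 0.19, adjusted p = 1.61e-10), at means of 367.2 in control and 146.3 in KO. In DHT the largest fall was that of AKR1C1, of -1.53 (standard error 0.47, adjusted p = 0.0121), at only 42.9 and 15.0 mean counts, and the largest rise that of SESN3, of 0.88 (standard error 0.16, adjusted p = 2.69e-06).

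The next comparison was between FM and EtOH, that is, between untreated serum and charcoal-treated serum followed by vehicle. The starvation medium was also free of phenol red, and the labels give no vehicle for FM. Effects of hormones and of these other differences cannot be told apart here. In control 42 members were tested. ABCC1, GCLM, GGT1 and GLRX2 were called higher in FM, 4 of 42 (9.52%, beside 9.81% of all genes), and GCLC, GPX1, GPX4, MGST3, NQO1 and PRDX5 lower, 6 of 42 (14.3%, beside 11.5%). In KO, 8 of 42 were called higher (19.0%, beside 9.61%), namely ABCC1, GCLM, GGT1, GLRX, GLRX2, GPX8, PRDX4 and PRDX6, and GCLC and PRDX5 were called lower, 2 of 42 (4.76%, beside 9.68%). The EtOH samples are the same that served as the reference for DHT, including the fall of GCLC by which the module was chosen, so the values of GCLC below are a description with no test. Without GCLC, 5 of 41 members were called lower in control (12.2%) and 1 of 41 in KO (2.44%).

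GCLC fell by 1.61 on the log2 scale in control (standard error 0.12), 3.05-fold, and by 2.25 in KO (standard error 0.12), 4.75-fold. GCLM rose by 0.7 in control (standard error 0.13, adjusted p = 2.53e-07) and by 0.65 in KO (standard error 0.13, adjusted p = 2.85e-06). The remaining enzyme of the synthesis, GSS, stayed between 5091.1 and 6928.9 normalised counts in all 12 samples and was not called in any comparison.

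ABCC1 (ENSG00000103222, chromosome 16, 16042995 to 16237114, plus strand), a transporter that exports glutathione and its conjugates, was at 1998.4 and 1622.4 normalised counts in control EtOH and 5710.5 and 5722.3 in control FM. In KO it was at 1658.2 and 1781.5 in EtOH and 5170.0 and 5131.6 in FM. The rise was 1.66 in control (standard error 0.14, adjusted p = 4.58e-32) and 1.58 in KO (standard error 0.14, adjusted p = 2.97e-29) on the log2 scale. ABCC1 was near the same level in both lines in each condition, with log2 differences of -0.07, -0.07 and -0.15 between KO and control in EtOH, DHT and FM and 95% intervals from -0.34 to 0.2, from -0.33 to 0.2 and from -0.41 to 0.11.

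Of the members called, GLRX2 had the largest rise in both lines, from the EtOH values above to 786.3 and 958.1 normalised counts in control FM against 822.6 and 838.5 in KO FM. The log2 fold change was 1.69 in control (standard error 0.16, adjusted p = 1.61e-24) and 2.23 in KO (standard error 0.17, adjusted p = 4.22e-39). The lines, apart in EtOH, overlapped in FM. GGT1 rose by 0.81 in control (standard error 0.23, adjusted p = 0.00214) and by 1.43 in KO (standard error 0.21, adjusted p = 2.45e-10).

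PRDX5, a peroxiredoxin of mitochondria and peroxisomes, was at 7482.5 and 12868.6 normalised counts in control EtOH and 4379.8 and 4049.3 in control FM, and at 9837.3 and 8258.0 in KO EtOH and 4985.3 and 5583.1 in KO FM. The FM samples were below the EtOH samples in both lines. It fell by 1.27 in control (standard error 0.2, adjusted p = 2.58e-09) and by 0.78 in KO (standard error 0.2, adjusted p = 0.000569) on the log2 scale. GPX1 changed by -0.78 in control (standard error 0.21, adjusted p = 0.00124), and GPX4, which reduces lipid peroxides, by -0.66 (standard error 0.19, adjusted p = 0.00211). Without control EtOH replicate 2 these values were -0.28 and -0.25, GCLM (0.56), MGST3 (-0.32) and NQO1 (-0.5) were no longer called either, and GLRX, PRDX4 and PRDX6 were.

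In KO the remaining calls were rises in peroxide and thiol enzymes. GPX8 rose by 1.13 on the log2 scale (standard error 0.16, adjusted p = 9.47e-11) and PRDX4 by 0.98 (standard error 0.15, adjusted p = 4.87e-10). PRDX6, which also reduces phospholipid peroxides, was at 12307.1 and 11792.8 normalised counts in EtOH and 23482.8 and 24958.7 in FM, a rise of 1.01 (standard error 0.1, adjusted p = 1.61e-20). GLRX, the cytosolic glutaredoxin, was at 566.3 and 486.5 in EtOH and 990.5 and 1108.1 in FM, a rise of 1.0 (standard error 0.16, adjusted p = 1.88e-08). FM and EtOH samples of KO did not overlap for any of these 4. In KO, 26 of 42 members lay wholly higher in FM, beside 37.3% of all genes. In control the same 4 also rose without overlap, though not called with all samples. Their control means in EtOH and FM were 537.0 and 755.5 for GPX8 and 5145.5 and 6810.2 for PRDX4. For PRDX6 they were 13876.0 and 20126.2, and for GLRX 587.4 and 846.2. All 10 calls in KO were kept in every fit that left out 1 of the samples compared. Of 60 genes of the longer pathway list, 5 were called higher (8.33%, beside 9.81% of all genes) and 13 lower (21.7%, beside 11.5%) in control, and 12 higher (20.0%, beside 9.61%) and 6 lower (10.0%, beside 9.68%) in KO. NNT had the largest rise, of 2.89 in control (standard error 0.22, adjusted p = 2.33e-37) and 2.35 in KO (standard error 0.26, adjusted p = 1.47e-17).

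**Figure D4:**
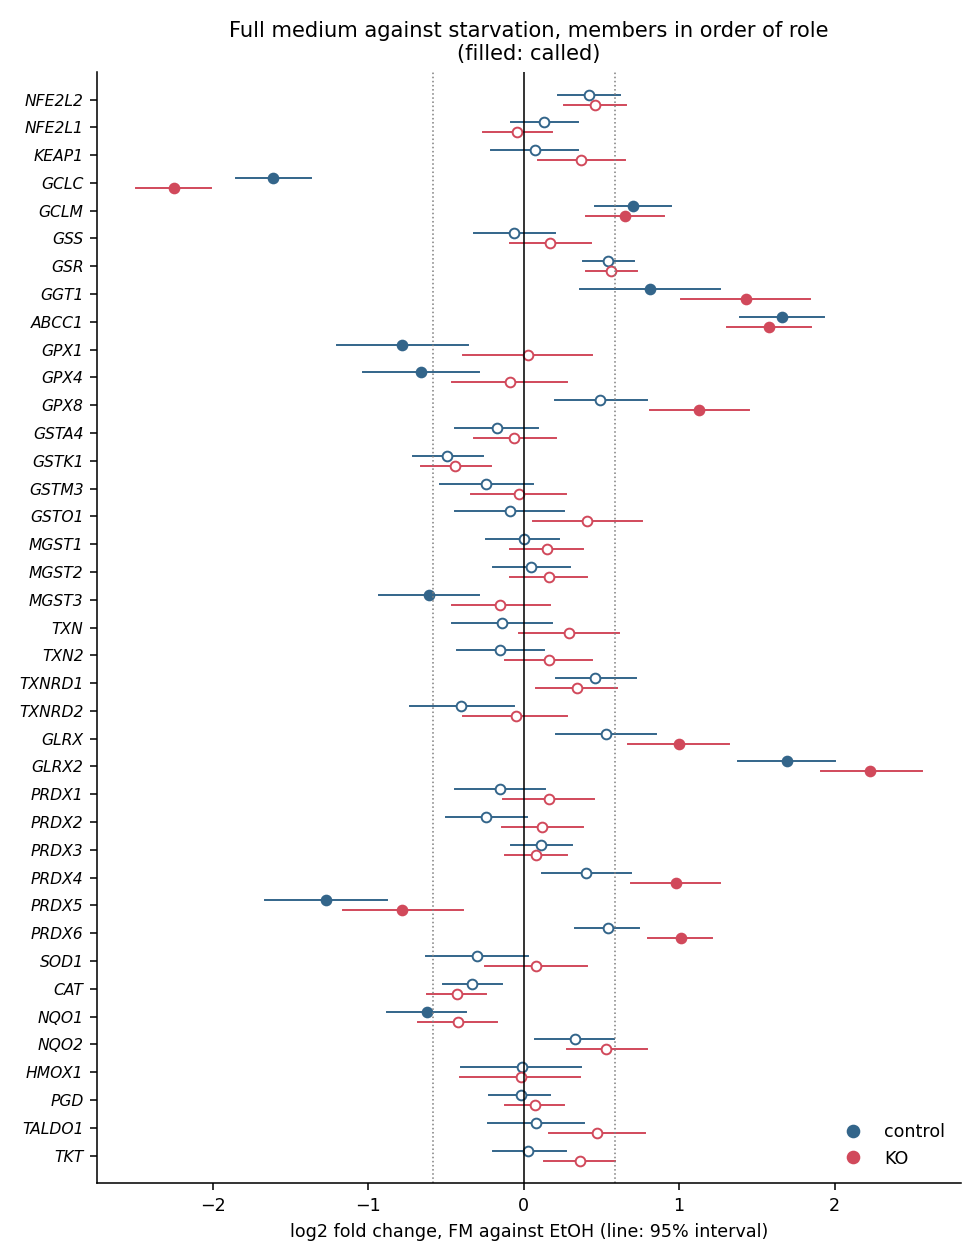
Log2 fold change of FM against EtOH in control (blue) and Bag-1L KO (red) for the 39 members with a mean normalised count of at least 100, in order of role, with 95% intervals as lines, filled points for calls and dotted lines at a 1.5-fold change. GCLC is farthest left, at -1.61 and -2.25, and GLRX2 farthest right, at 1.69 and 2.23, and for most members the KO point lies to the right of the control point.

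Whether the response to FM differed between the lines was tested as the difference of the FM log2 fold changes, KO minus control. GCLC, chosen on the EtOH samples that enter this difference, is given as a description. Its log2 difference was -0.64 (standard error 0.17) and stayed between -0.55 and -0.73 whichever of the 8 samples was left out. Its FM levels in the lines were close and its EtOH levels apart, as given above. Of the other 38 members 0 were called (beside 1.39% of all genes), with DESeq2 and with edgeR's quasi-likelihood test. An unadjusted p under 0.05 was found for 10 and 13, but the share over all genes was not counted. That number also moved with the control EtOH libraries, so it is no result about the members.

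For these 38 members the difference was positive in 31, with a median of 0.3 on the log2 scale, beside 51.3% of genes and a median of 0.012 over all genes. The members share the same libraries, so their signs are not independent of each other. The size of the differences moved with the control EtOH libraries, and their signs did so less. The median was 0.478 without control EtOH replicate 1, with 32 positive (beside 50.6% of all genes), and 0.073 without replicate 2, with 31 positive (beside 48.5%). Some of the latter were near 0, such as GSS and TXNRD2 at 0.02. The number called moved as well, but the share over all genes in these fits was not counted, so it is no result about the members. PRDX5 shows the size of the shift, with a difference of 0.5 in the full fit (standard error 0.28, adjusted p = 0.374), 0.83 without replicate 1 and 0.05 without replicate 2. GPX8 and GGT1 moved less, from 0.64 to 0.7 and 0.57 and from 0.62 to 0.73 and 0.49, and were not called in the full fit (adjusted p of 0.116 and 0.313). Which of the 2 libraries is nearer the usual state of these cells was not tested.

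**Figure D5:**
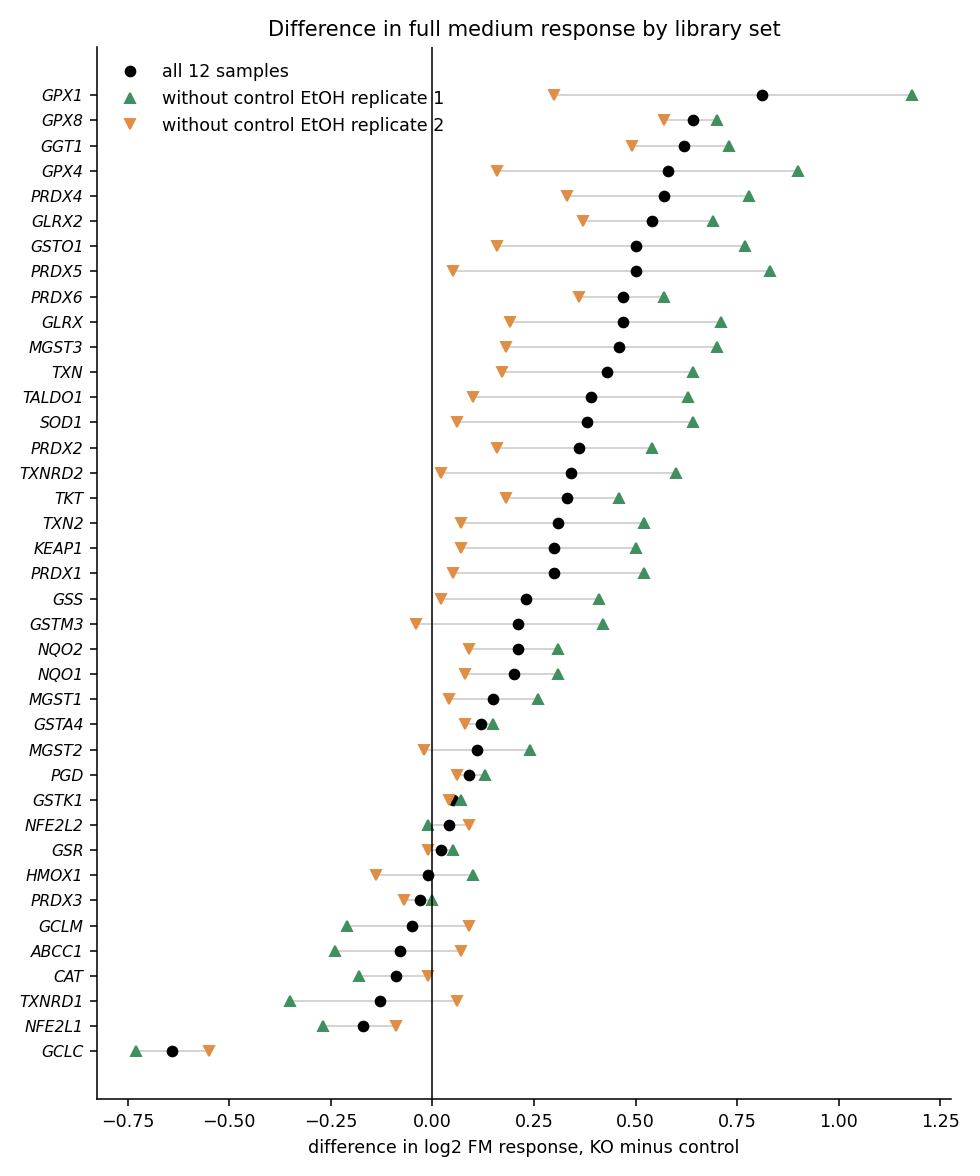
Difference between the lines in the log2 response to FM (KO minus control) for 39 members in the fit of all 12 samples (black), without control EtOH replicate 1 (green) and without control EtOH replicate 2 (orange). Most points shift to the right without replicate 1 and towards 0 without replicate 2, with a median over all 39 of 0.458 and 0.069, whereas GCLC stays between -0.55 and -0.73.

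The response to DHT itself was a ground on which the module was chosen, and it is given as a description. In control, 5 of 42 members were called higher with DHT (11.9%, beside 6.04% of all genes), namely ABCC1, GLRX, GLRX2, HMOX1 and PRDX6, and GCLC was called lower, 1 of 42 (2.38%, beside 5.37%). In KO, ABCC1, GLRX, GLRX2 and PRDX6 were called higher, 4 of 42 (9.52%, beside 4.43%), and GCLC lower, 1 of 42 (2.38%, beside 3.24%). GCLC fell by 1.18 on the log2 scale in control (standard error 0.12) and by 1.61 in KO (standard error 0.12). ABCC1 rose by 1.63 (standard error 0.14) and 1.64 (standard error 0.14), from the EtOH values above to 6312.9 and 4892.3 normalised counts in control DHT against 5381.3 and 5308.8 in KO DHT. GLRX2 rose by 1.03 (standard error 0.16) and 1.07 (standard error 0.17). GLRX rose by 0.74 (standard error 0.16) and 1.01 (standard error 0.16), and PRDX6 by 0.59 (standard error 0.1) and 0.85 (standard error 0.1). In control, PRDX6 and HMOX1 were no longer called without control DHT replicate 2, and PRDX6 and GLRX without control EtOH replicate 1. PRDX6 was also not called with edgeR, with TMM size factors or with a minimum of 10 counts in every sample. Without control EtOH replicate 2, KEAP1 was called higher. All 5 calls in KO were kept in these fits. Of 57 genes of the pathway list, 7 were called higher (12.3%, beside 6.04%) and 4 lower (7.02%, beside 5.37%) in control, and 3 higher (5.26%, beside 4.43%) and 3 lower (5.26%, beside 3.24%) in KO.

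For 38 members, GCLC left out, it was tested whether control and KO responded differently to DHT. The number called was 0 (beside 0.408% of all genes), with DESeq2 and with edgeR's quasi-likelihood test. At an unadjusted p under 0.05 there were 1 and 2, a number whose share over all genes was not counted either. HMOX1 had the largest difference, at 0.73 in control (standard error 0.19) and -0.06 in KO (standard error 0.2). Their difference of -0.79 (standard error 0.27, 95% interval -1.32 to -0.25) did not pass (adjusted p = 0.349). For ABCC1 the difference was 0.01 with a 95% interval of -0.37 to 0.38, and for GLRX2 it was 0.03 with an interval of -0.42 to 0.49. The values of the 38 ran from -0.79 to 0.27 with a median of -0.029. The median was 0.155 without control EtOH replicate 1 and -0.191 without replicate 2, so its sign depended on these libraries. Of the longer pathway list, SESN3, a stress-induced sestrin, was called in this comparison, at 0.85 (standard error 0.23, adjusted p = 0.0488).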

How the data were processed

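Stranded poly(A) libraries of 12 samples were sequenced on an Illumina HiSeq instrument. The deposited values are raw read counts per gene, made by the authors with CASAVA 1.7, TopHat2 2.0.11 on GRCh37 and HTSeq 0.5.3p3, per the labels and the study's methods. The Ensembl release and the strand setting are not given in the sources used here. Reads with more than 1 alignment (15.911% to 19.972%) or more than 1 overlapping gene (6.898% to 7.965%) were in no gene's count, which lowers genes with close copies or overlapping neighbours. Each file also held 5 tallies, which were kept out of all totals.

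Symbols, positions and exon lengths were taken from GENCODE on GRCh37, where 55665 identifiers were found. Genes with at least 10 counts over all samples were kept. DESeq2 1.42.0 (R 4.3.3) was fitted once to all 12 samples with a coefficient per group, median-of-ratios size factors and Wald tests, with p-values adjusted over all genes. Normalised counts are counts divided by the size factors, and SD is over 2 replicates. Samples were grouped by title. Replicate counts differed beyond sampling noise in every group. Alternatives were edgeR 4.0.16, TMM size factors, other filters on low counts, fewer samples, no fold change minimum, replicate blocks and each replicate left out. In simulated counts for KO against control in EtOH over 26156 genes, 87% of 2-fold and 99% of 4-fold changes were recovered, with 11 false calls. The simulation gave each gene the same spread in all groups and changed only better counted genes. It held no shift of a whole library, unlike the control EtOH replicates, so these figures may be too favourable.

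The members and gene lists were chosen with earlier results of these data known. Values in every sample were given for GCLC, GCLM, NFE2L2 and KEAP1 and for members called in several comparisons, and fold changes for at most 8 called members per comparison with a mean of at least 100 counts. Other values were chosen after they were seen.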

Additional observations from a re-analysis of the deposited data

How the results depend on the processing

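Among 30 fold changes of named members, 17 kept their direction and call under all alternatives tried. All 30 were named because they were called in the main fit, so the alternatives could keep or lose calls but not add any. The 30 include the FM values of GCLC, which are a description only. The alternatives include the replicate block within each line, whose meaning is given below. Of 334 alternative values 41 were no longer called and 0 changed sign. With only the samples compared, the number of members called between KO and control in EtOH was 2 instead of 4. Without the fold change minimum it was 10 instead of 6 in DHT and 7 instead of 3 in FM, 20 instead of 10 for FM against EtOH in either line, and 11 instead of 6 and 9 instead of 5 for DHT against EtOH in control and KO. edgeR called 0 instead of 1, which was GCLC, for the difference in FM response. The share of all genes called was counted in the main fit only. The numbers called under the alternatives, those that follow included, therefore describe the processing and are no result about the members. Of those that follow, the highest for the difference in FM response came only without control EtOH replicate 1. With each replicate left out in turn, the number called ran from 2 to 6 for KO against control in EtOH, from 2 to 8 in DHT and from 0 to 14 for the difference in FM response.

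The replicate numbers were checked by correlating, over 11374 genes, the replicate differences of all 15 pairs of groups. The correlations ran from -0.415 to 0.692 with a mean of 0.033, and 8 were positive, so the numbers were not taken to pair the samples. A replicate block common to all groups gave the same members as without it in every comparison. A replicate block within each line gave 2 instead of 4 members for KO against control in EtOH, of which 1 was shared, and 3 instead of 6 in DHT. In that fit KO against control is the difference between the lines at replicate 1, not over both replicates. Those counts are therefore of another quantity and no check of the calls. With 2 replicates, and 1 in the fits that left a sample out, which is then assumed to vary like the others, small changes are not resolved, and for the 6 members below 100 normalised counts calls can depend on the tool, as for GPX2, which edgeR called in 3 comparisons and DESeq2 in 0.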
